A study of Mus musculus with 6 samples.

Results

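The comparison set peritoneal macrophages of TIARP-deficient mice (genotype TIARP-/-, here KO) against those of wild-type mice (TIARP+/+, here WT), both without the TNF label. It was made of 2 arrays, 1 per genotype, of the 6 in the series, and the arrays were chosen by their labels. All mice were C57BL/6. By the study's design text, mice received thioglycollate medium in the peritoneal cavity, and macrophages were taken after 3 days from 3 mice per genotype. The labels number these mice, but whether their RNA was pooled on the array, which part of the gene was deleted, and whether the cells without the TNF label were kept in culture are not given in the sources used here. The other arrays held such macrophages with TNFα for 24 h and Ly6G+ neutrophils isolated from spleen by magnetic sorting (MACS), each 1 per genotype. They are used here to show what the same genes did elsewhere and as a reference for neutrophil genes. They also entered the choice of probe, since each gene was read by its probe of highest mean over the 6 arrays. With 1 array per group, no difference had a replicate check, so differences are given by size and without a test.

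Steap4 encodes TIARP, a metalloreductase of cell membranes that reduces iron and copper and is known for its induction by TNF and other inflammatory signals. Thioglycollate draws neutrophils and then monocytes into the peritoneal cavity, and the monocytes mature into macrophages there. A peritoneal lavage can also hold resident macrophages, B cells, mast cells and shed mesothelial cells. In such a bulk sample, fewer cells of a type and less RNA per cell cannot be told apart.

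Values are given as a scaled level, which is the signal of a gene's probe set so that the 75th percentile of its array is 100. Ratios of scaled levels of 1 probe between arrays are folds, and levels of different probes cannot be ranked. A gene was tested where its probe was well above background on the brighter array, and counted as different where the log2 difference, KO minus WT, was at least 1 in size (2-fold). Where the probe was not well above background on the dimmer array, the fold is a bound and is written "at least". Of 24588 genes tested, 1006 were at least 2-fold higher on the KO array (4.09%) and 383 at least 2-fold lower (1.56%). The median log2 difference over all of them was 0.07. Of the 1006 and 383, 197 and 89 rested on a bound. Differences of 4-fold or more numbered 198 higher and 52 lower.

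The size of these counts depended on how the arrays were scaled. The 8 spike-in probes, which read control RNA meant to be added in equal amounts, lay 0.52 higher (mean log2) on the KO array after scaling, with an SD of 0.27 between probes. Scaling to them lowered the median of all genes by 0.52 and turned the split from 72.4% to 19.9% higher among genes past the rule (438 higher, 1765 lower). The 8 probes ranged from 0.33 to 1.17, with a median of 0.44. Directions of gene lists below are relative to the 75th percentile, and a list median between 0 and 0.52 is below 0 relative to the spike-ins. Values relative to the spike-ins use their mean. List medians between 0.44 and 0.52 would stay above 0 relative to the spike-in median. The log2 signals of repeat spots of a probe differed within each of these arrays by an SD of 0.08 (median over probes), which covers neither labelling nor mice.

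**Figure D1:**
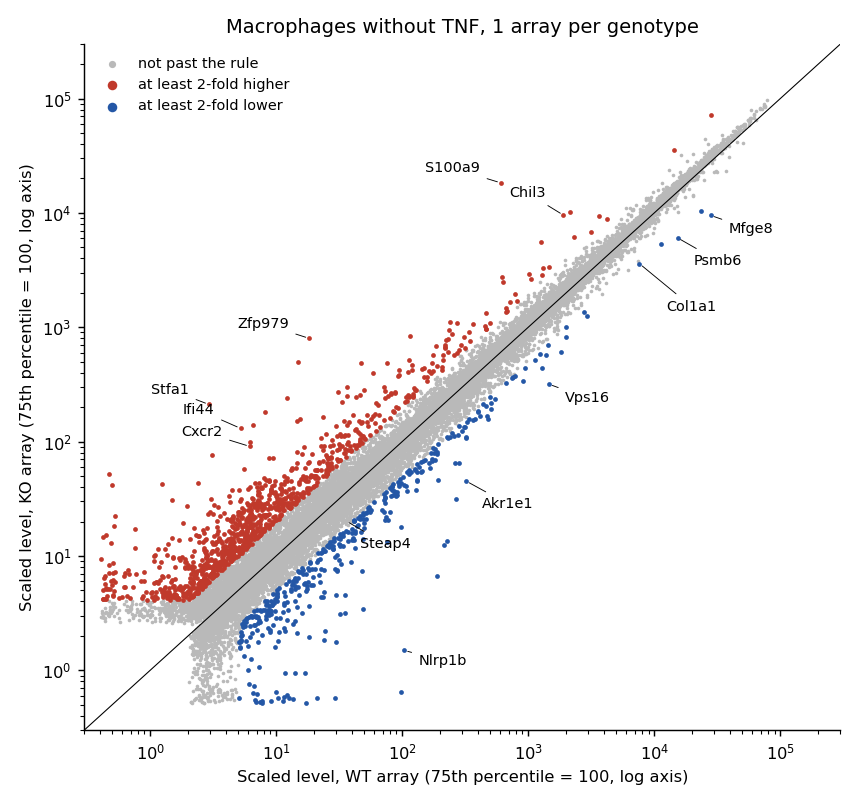
Scaled level of each of the 24588 genes tested on the WT array (x axis) and the KO array (y axis) of macrophages without TNF, both on log axes with the 75th percentile of each array at 100. Red points are the 1006 genes at least 2-fold higher and blue points the 383 at least 2-fold lower. The diagonal marks equal levels, and most genes past the rule lie at low levels, apart from a few bright ones such as S100a9 and Mfge8.

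Most calls were among dim genes. Among the third of genes with the lowest mean signal, 8.83% were higher and 2.70% lower, against 0.68% and 0.37% in the third with the highest. Where a gene past the rule had another probe, 203 of 255 other probes had the same sign for higher genes and 92 of 108 for lower genes, and 94 and 51 were past 2-fold as well.

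Steap4 was detected on both arrays and was lower on the KO array without reaching 2-fold. Its scaled level was 35.7 on the WT and 20.3 on the KO array (log2 -0.81). With TNF it was 11.4 on the WT array and 3.79 on the KO array, where the probe was not well above background. On the neutrophil arrays it was 21.1 and 16.1. The probe spans chromosome 5 from 7981239 to 7981298 (mm9), and its first 30 of 60 bases are shown because they are what the level reads.

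Steap4 probe: actgcaacaaaattggtttgaagtagctgt

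The labels do not say which part of the gene was deleted, so the probe could sit in a part that remains, and its level is no check of the genotype. The other STEAP metalloreductases were not past the rule either. Steap1 read 749 and 524 (log2 -0.52), Steap2 208 and 152 (log2 -0.45), and Steap3 288 and 431 (log2 0.58). A second probe of Steap3 went the other way (log2 -0.39). Of 14 genes tested within 1 Mb of the Steap4 probe, 0 were past the rule (4.09% higher and 1.56% lower over all genes). Their median was -0.08 (0.07 over all genes). Ddx3y and Eif2s3y, which are Y-linked, were well above background on both arrays (368 and 341, 905 and 1061). Xist, the RNA that coats the inactive X chromosome, was not well above background on any of the 6 arrays.

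The macrophage markers differed by less than 2-fold, by the probe used for each gene. Of 14 measured, 0 were past the rule, all were well above background on both arrays, and their median was 0.23 (-0.29 relative to the spike-ins). They ran from Mertk, a receptor for apoptotic cells, at -0.56 to the scavenger receptor Marco at 0.65, with Adgre1 (F4/80) at 0.27 and Csf1r, the M-CSF receptor, at 0.19. A second probe of Cd68, a lysosomal membrane protein at 0.12, was at -1.08. Their summed level was 130100 on the WT and 155368 on the KO array. Of the 40 gene lists on pathways, 15 had 0 members past the rule. Among these were the Toll-like receptors and adaptors (20 tested, median 0.19), NF-kB subunits and regulators (18, median 0.15), lysosomal hydrolases and proton pump (28, median 0.17) and oxidative phosphorylation subunits (30, median 0.07). Each of these medians was below 0 relative to the spike-ins. Over all genes tested 4.09% were higher and 1.56% lower, and 0.68% and 0.37% in the third with the highest signal. At such shares a count of 0 says little in lists of this size. Tnf itself was at 0.08 and Il6 at -0.34.

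Within the lists of inflammatory signals, single members were past the rule. Il1b, the interleukin-1β precursor, read 150 on the WT and 439 on the KO array (2.93-fold higher). The interleukin-1 receptor Il1r1 went the other way, from 783 to 376 (log2 -1.06), and the decoy receptor Il1r2 from 22.8 to 106.99 (log2 2.23). Socs3, the feedback inhibitor of STAT3 signalling, read 1459 and 3370 (2.31-fold higher). Cxcl2, a chemokine that attracts neutrophils, read 126 and 284 (2.25-fold higher), and it was the single member of 6 ELR CXC chemokines past the rule. Cxcl13, which attracts B cells, read 185 and 680 (3.68-fold higher), and Ccl24, which attracts eosinophils, 176 and 567 (3.23-fold higher). Acod1, which makes itaconate, read 271 and 592 (2.19-fold higher). Socs3, Cxcl2 and Acod1 were under 2-fold relative to the spike-ins.

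**Figure D2:**
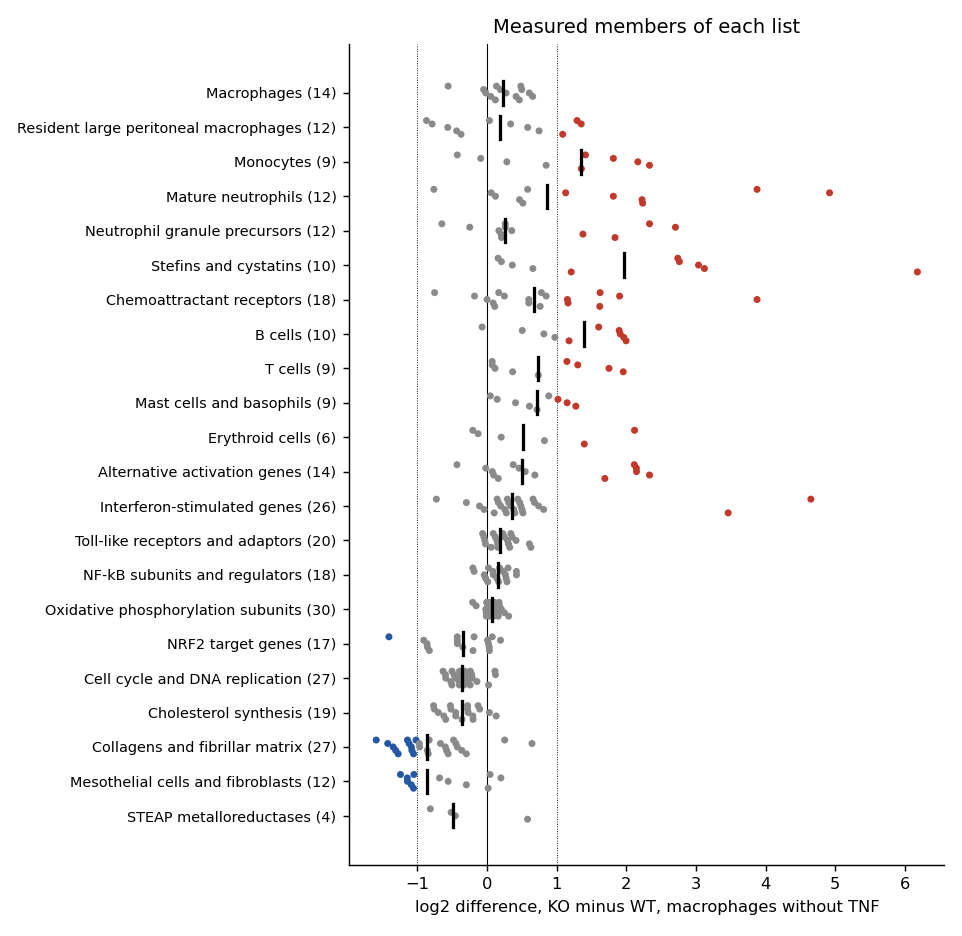
Log2 difference, KO minus WT, in macrophages without TNF (x axis) for each tested member of 22 gene lists (rows, with the number of members tested). Red and blue points are past 2-fold higher or lower, grey points are not, black bars are list medians and dotted lines mark 2-fold. Neutrophil, stefin, monocyte and B-cell lists reach to the right, and the collagen and mesothelial lists lie to the left.

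Neutrophil genes were among the largest differences. S100a9 and S100a8 encode the subunits of calprotectin, a calcium-binding protein abundant in neutrophils. S100a9 read 606 on the WT array and 18298 on the KO array, and S100a8 2163 and 10100 (30.2-fold and 4.67-fold higher). Cxcr2, a receptor for ELR CXC chemokines, read 6.18 and 90.7 (14.7-fold higher), and its relative Cxcr1 5.12 and 19.1 (3.74-fold). With normexp background correction Cxcr1 was just under 2-fold (0.98). Ly6g, the surface protein by which the study sorted splenic neutrophils, read 11.003 and 38.6 (3.51-fold higher). Of the 12 mature neutrophil markers, 6 were higher and 0 lower, against 4.09% and 1.56% of all genes. The list median was 0.86, against 0.07 over all genes. The other members ran from Padi4, an enzyme of chromatin citrullination, at -0.76 to Mxd1 at 0.58, with the G-CSF receptor Csf3r at 0.12.

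Against the sorted neutrophils of the same genotype, S100a9 read 0.50% on the WT macrophage array and 14.7% on the KO array. For S100a8 these shares were 3.28% and 12.0%, for Ly6g 3.08% and 9.78%, and for Cxcr2 1.08% and 5.15%. Over the 12 markers the median share was 5.20% and 11.9%. The list's summed level was 17565 on the WT and 45032 on the KO array, and all 12 were well above background on both. Most of that rise was in S100a8 and S100a9, and the other 10 markers summed to 14797 and 16635 (1.12-fold). Csf3r alone made up 11645 and 12653 of this sum, so it says little of the rest. The median of the 10 was 0.55, and 4 were at least 2-fold higher. The part of neutrophils in the other differences was not tested.

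Granule protein genes were mixed. Of 12 tested, 4 were higher and 0 lower, against 4.09% and 1.56% of all genes. The median of 0.26 was below 0 relative to the spike-ins. Lcn2, the iron-carrier-binding lipocalin, read 75.1 and 489 (6.51-fold higher), the protease gene Prtn3 32.3 and 115 (3.57-fold) and lactoferrin, Ltf, 5.91 and 15.4 (2.60-fold). Ltf was under 2-fold with normexp background correction (0.68) and relative to the spike-ins (0.85). Mpo, Camp and Ctsg, which encode myeloperoxidase, cathelicidin and cathepsin G, were at 0.17, 0.26 and 0.35, and Elane, neutrophil elastase, at -0.65.

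The promoters of S100a8 and S100a9 are shown because these neighbours differed together. They run from 250 bases before to 50 after the RefSeq start (GRCm38.p6). S100a8 is on the + strand at chr3:90668821-90669120 and S100a9 on the - strand at chr3:90695672-90695971. Capitals mark matches on either strand to TATAAA, the core of a TATA box, and to TTNNGNAA, a C/EBP-type motif.

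S100a8: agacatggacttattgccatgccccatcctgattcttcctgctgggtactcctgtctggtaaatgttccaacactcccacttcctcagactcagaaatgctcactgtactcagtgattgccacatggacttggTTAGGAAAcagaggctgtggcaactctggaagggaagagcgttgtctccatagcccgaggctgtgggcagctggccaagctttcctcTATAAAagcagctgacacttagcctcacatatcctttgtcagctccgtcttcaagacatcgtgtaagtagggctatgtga

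S100a9: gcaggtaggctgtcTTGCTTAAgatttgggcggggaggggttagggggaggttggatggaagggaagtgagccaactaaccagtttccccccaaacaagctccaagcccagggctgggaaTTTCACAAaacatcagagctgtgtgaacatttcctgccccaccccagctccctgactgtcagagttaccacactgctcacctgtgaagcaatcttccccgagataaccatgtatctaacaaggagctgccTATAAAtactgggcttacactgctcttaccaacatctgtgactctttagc

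TATAAA was found 1 time in each, TTNNGNAA 1 time in S100a8 and 2 times in S100a9. Over 32851 promoters of that length, 13.6% held TATAAA and 40.7% held TTNNGNAA, so the second letters are common.

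Stefins, which inhibit cysteine proteases inside cells, held the largest fold of any list member, by the probe used for each gene. Stfa1 read 2.92 on the WT array and 211 on the KO array (72.3-fold higher, log2 6.18). The WT level lay near the lowest level well above background on that array (2.05). With normexp background correction the log2 difference of Stfa1 was 3.96. Stfa2l1 read 30.9 and 269, Stfa2 36.7 and 301, Cstdc5 58.6 and 397, and Cstdc4 33.5 and 224, between 6.67-fold and 8.69-fold higher. Of 10 stefins and cystatins tested, 6 were higher and 0 lower, against 4.09% and 1.56% of all genes. The list median was 1.97, and 1.45 relative to the spike-ins. Cstb, which is expressed widely, was at 0.16, and Cst3, cystatin C, at 0.66. On the sorted neutrophil arrays the 5 stefin genes lay close together between genotypes (log2 between -0.25 and 0.15). Stfa1 on the KO macrophage array reached 91.7% of the KO neutrophil array, and Stfa2 23.2%.

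The stefin genes lie side by side on chromosome 16 and resemble each other, so the first 30 of the 60 bases of each probe are shown to compare what was read.

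Stfa1 probe: tgatctgattcctctcagtggaaagagatt

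Stfa2 probe: atcccctaacccccattgtaaagagatgcg

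Stfa2l1 probe: aaattacttcattaagatggatgtaggacg

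Cstdc4 probe: aagggatttctggagaaaatgttttagaac

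Cstdc5 probe: actgacaaaaccaaggatgatgagctgacc

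Over whole probes, the longest run of bases shared by any pair was 9. In the best ungapped alignment, Stfa1 and Stfa2 matched at 40 positions and the other pairs at 18 to 24. Whether a probe also reads transcripts of the other stefin genes was not tested, since no transcript sequences were used here.

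B-cell genes were higher on the KO array. Cd79b and Cd79a, the signalling chains of the B-cell receptor, read 236 and 939, and 87.5 and 266, on the WT and KO arrays (3.99-fold and 3.04-fold higher). Ms4a1 (CD20) read 119 and 465, and the lineage factor Ebf1 6.21 and 23.3. Of 10 B-cell markers tested, 6 were higher and 0 lower, against 4.09% and 1.56% of all genes. Their median was 1.39 (1.02 with normexp background correction and 0.86 relative to the spike-ins). The lectin Cd22 was at -0.07. The list's summed level was 760 and 2161, and the median share of the neutrophil array of the same genotype was 1.02% on the WT and 2.83% on the KO array. The sorted neutrophil arrays read these genes strongly, with a summed level of 66275 (WT) and 67006 (KO). Fcmr, the IgM Fc receptor, was also among the 20 largest increases that brighter, formally named genes showed (71.8 and 302), and H2-Ob, a modulator of MHC class II loading, read 36.5 and 140 (3.83-fold higher).

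Immunoglobulin probes, picked by their description after values were seen, went the same way. Some were tested because they were well above background on the KO array alone, so the counts are given for probes well above background on both. Of 44 such probes for kappa variable segments (84 on the array), 16 were higher and 0 lower (median 0.66). For heavy variable segments the counts were 5 higher and 1 lower of 12 (31 on the array, median 0.73), and for lambda segments 4 higher of 4 (median 1.78). By bounds, 13 kappa variable, 6 heavy variable and 1 lambda probe were higher as well. The mu heavy constant probe read 206 on the WT and 449 on the KO array. In neutrophils from spleen the same groups, with all tested probes, were lower on the KO array, with medians of -1.84, -1.82 and -1.15. Plasma cell markers were mixed, with 3 of 7 higher (Irf4, Derl3 and Mzb1) and Jchain, the joining chain of secreted IgM and IgA, at -0.22. Irf4 and Derl3 were under 2-fold with normexp (0.89 and 0.64) and relative to the spike-ins (0.65 and 0.55). B-1 cell markers had 1 of 7 higher, Zbtb32, and a median of 0.09. Over all genes tested, 4.09% were higher and 1.56% lower.

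T-cell markers had 4 of 9 higher and 0 lower (median 0.74), against 4.09% and 1.56% of all genes. Among the third of genes with the lowest mean signal, these shares were 8.83% and 2.70%. Cd8b1 read 3.29 and 12.7, Cd247 11.1 and 37.3, Cd3g 6.71 and 16.5, and Cd3d 14.3 and 31.7, while Cd3e and Cd4 were at 0.07 and 0.11. With normexp background correction Cd8b1, Cd3g and Cd3d were under 2-fold (0.81, 0.71 and 0.74), and relative to the spike-ins Cd3g and Cd3d were (0.78 and 0.62). Of the 5 NK-cell markers tested, Klra8, an NK receptor of the Ly49 family, read 61.4 and 218 (3.54-fold higher). Gzma and Prf1, which encode cytotoxic granule proteins, were at -0.09 and 0.05. Mast cell and basophil markers had 3 of 9 higher (median 0.72), against 4.09% of all genes. These were Cpa3, Fcer1a and Tpsb2, at 2.22-fold, 2.42-fold and 2.02-fold, and the 3 were under 2-fold relative to the spike-ins. Haemoglobin genes were higher here (Hba-a1 233 and 612, Hbb-bs 11.6 and 50.3, Hbb-b2 46.1 and 255). Relative to the spike-ins Hba-a1 was under 2-fold (0.87). With TNF, Hba-a1 was lower on the KO array instead (128 and 50.7).

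**Figure D3:**
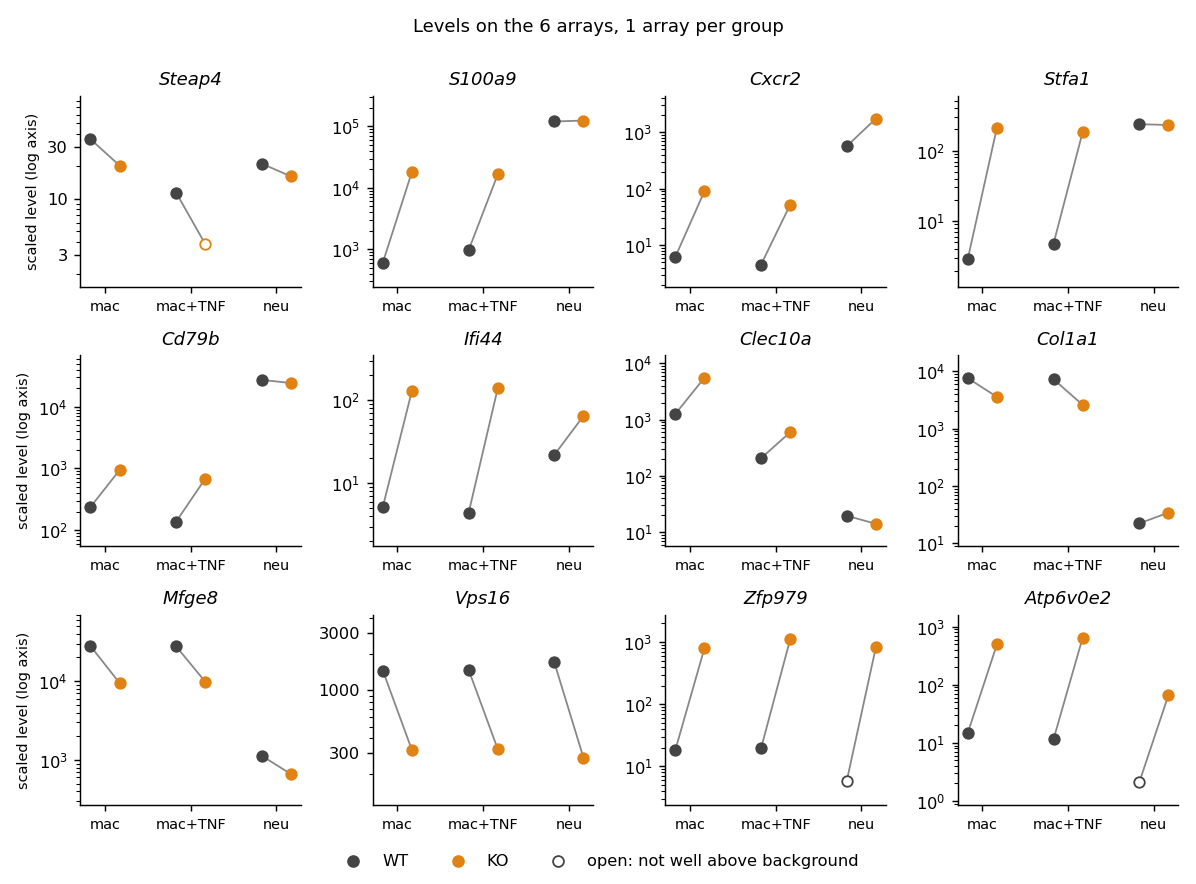
Scaled level (y axis, log, with its own range in each panel) of 12 genes on the WT and KO arrays of macrophages without TNF (mac), macrophages with TNF (mac+TNF) and splenic neutrophils (neu), 1 array per point. Open points were not well above background. S100a9, Cxcr2, Stfa1 and Cd79b differ between genotypes on the macrophage arrays and are highest on the neutrophil arrays, whereas Zfp979, Atp6v0e2 and Vps16 differ in the same direction in all 3 pairs.

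Monocyte and alternative activation genes were higher in part. Of 9 monocyte markers, 5 were higher and 0 lower, against 4.09% and 1.56% of all genes. The list median was 1.35, and 0.83 relative to the spike-ins. Chil3 (Ym1), a chitinase-like protein, read 1900 on the WT and 9563 on the KO array (5.03-fold higher). F13a1, a coagulation factor made by monocytes and macrophages, read 2313 and 6157 (2.66-fold), and haptoglobin, Hp, 3656 and 9341 (2.55-fold). Relative to the spike-ins F13a1 and Hp were under 2-fold (log2 0.89 and 0.83). Ccr2, the receptor by which monocytes leave the marrow, was at 0.85, and Fn1 at -0.43. The monocyte list shares Chil3 with the granule and alternative activation lists.

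Of 14 alternative activation genes tested, 5 were higher and 0 lower, against 4.09% and 1.56% of all genes. The list median was 0.50, and -0.06 relative to the spike-ins. Cd163, among the 5, rests on a bound. Clec10a, a galactose-binding lectin of macrophages and dendritic cells, read 1259 and 5560 (4.42-fold higher), and on the neutrophil arrays 19.5 and 14.0. Chil4 read 12.998 and 56.3 (4.33-fold). The haemoglobin-haptoglobin receptor Cd163 was not well above background on the WT array and read 9.05 on the KO array, at least 4.42-fold higher, but was under 2-fold with normexp background correction. The hallmark genes Mrc1, Arg1 and Retnla were at -0.02, 0.69 and 0.37. Of 12 markers of resident large peritoneal macrophages, 3 were higher (Saa3, Timd4 and Alox15) and 0 lower, against 4.09% and 1.56% of all genes. The list median was 0.19 (-0.34 relative to the spike-ins), and the lineage factor Gata6 was at -0.87. Timd4 and Alox15 were under 2-fold with normexp (0.85 and 0.99) and relative to the spike-ins (0.77 and 0.56). Saa3, an acute-phase protein, read 28017 and 71454 (2.55-fold higher), but was under 2-fold relative to the spike-ins (log2 0.83).

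Of the interferon-stimulated genes, few were past the rule, and these by wide margins. Ifi44 read 5.21 on the WT array and 131 on the KO array (25.1-fold higher). Ifi44l was not well above background on the WT array and read 22.5 on the KO array, at least 11.006-fold higher. Of 26 interferon-stimulated genes tested, these 2 were past the rule, both higher (7.69%, against 4.09% of all genes). Ifi44l was tested through the KO array alone and could not count as lower, so this share says little. The list median was 0.36, and -0.16 relative to the spike-ins. For another member, Xaf1, an interferon-induced gene that promotes apoptosis, the answer turned on the probe. The brighter probe, which the counts use, read 346 on the WT and 209 on the KO array (log2 -0.73). A second probe read 6.63 and 1149.7 (173-fold higher), and likewise 3.58 and 1541 with TNF and 7.49 and 695 in neutrophils. With the median over its probes Xaf1 was at 3.35. The antiviral genes Rsad2, Ifit2 and Isg15 were at 0.81, 0.74 and 0.50. Ifi44 was also higher on the KO array with TNF (4.38 and 139) and in neutrophils (22.0 and 64.7). The promoters of the pair, both on the - strand, are shown because the genes are neighbours and differed together (chr3:151749861-151750160 for Ifi44 and chr3:151762842-151763141 for Ifi44l, GRCm38.p6). Capitals mark matches on either strand to GAAANNGAAA or GAAANGAAA, the core letters of elements bound by interferon regulatory factors.

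Ifi44: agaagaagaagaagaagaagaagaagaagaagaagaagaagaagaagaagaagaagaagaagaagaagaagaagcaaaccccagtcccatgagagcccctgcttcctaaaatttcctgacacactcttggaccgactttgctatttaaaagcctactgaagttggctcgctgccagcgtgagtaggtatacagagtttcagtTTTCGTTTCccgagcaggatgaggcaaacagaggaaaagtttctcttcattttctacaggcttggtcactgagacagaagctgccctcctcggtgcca

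Ifi44l: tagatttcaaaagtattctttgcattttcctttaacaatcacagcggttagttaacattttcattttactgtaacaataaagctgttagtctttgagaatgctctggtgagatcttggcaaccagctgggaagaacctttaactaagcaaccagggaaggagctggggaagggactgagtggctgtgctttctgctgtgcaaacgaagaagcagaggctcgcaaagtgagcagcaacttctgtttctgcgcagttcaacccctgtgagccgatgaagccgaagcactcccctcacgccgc

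GAAANNGAAA was in neither, and GAAANGAAA was 1 time in Ifi44 and not in Ifi44l. Of all promoters, 3.44% held the first and 3.17% the second. Of the list, 19 genes had a promoter in the table, and 10 of these held GAAANNGAAA.

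Collagen and matrix genes were lower on the KO array. Col1a1 and Col1a2, the chains of type I collagen, read 7633 and 3594, and 11216 and 5395, on the WT and KO arrays (2.12-fold and 2.08-fold lower). Col6a3 read 323 and 107.3 (3.01-fold lower), Col5a1 325 and 150, fibrillin 1, Fbn1, 132 and 54.5, and the proteoglycan lumican, Lum, 125 and 56.7. Serpinh1, the chaperone of collagen folding, read 2783 and 1373. Of 27 members tested, 11 were lower and 0 higher, against 1.56% lower among all genes, and the median was -0.86. With normexp Lum, Col4a2, Col5a2, Col12a1 and Postn were under 2-fold (-0.99, -0.99, -0.93, -0.58 and -0.48). The members not past the rule included Col3a1 at -0.56, Sparc at -0.67 and decorin, Dcn, at -0.30. On the neutrophil arrays Col6a3, Col5a2 and Lum were not well above background.

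Mesothelial and fibroblast markers went the same way, with 6 of 12 lower and 0 higher (median -0.87), against 1.56% lower among all genes. Of the 6, 3 are also on the matrix list. Upk3b, a mesothelial membrane protein, read 43.4 and 18.3, Lrrn4, another mesothelial gene, 114 and 51.6, and Pdgfra, a receptor of fibroblasts, 748 and 361. With normexp Upk3b and Lrrn4 were under 2-fold (-0.75 and -0.94). Msln, mesothelin, was at 0.01 and Krt19 at 0.20. The list's summed level was 27566 on the WT and 15482 on the KO array, and all 12 were well above background on both. The part of such cells in the other differences was not tested. Among matrix proteases and inhibitors, Mmp2 read 32.9 and 8.52 (3.86-fold lower), Adamts4 81.2 and 33.5, and Timp3 1140 and 522. Mmp2 was under 2-fold with normexp (-0.92). Mmp9, a neutrophil gelatinase, went the other way (129 and 281), but was under 2-fold relative to the spike-ins (0.60). Mfge8, a bridge between apoptotic cells and phagocytes, read 28074 and 9503 (2.95-fold lower). The chemokine Cxcl12, made by stromal cells, read 467 and 167, and Mgp, an inhibitor of calcification, 1274 and 437.

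A smaller shift was shared by 3 lists with almost no member past the rule. The cell cycle and DNA replication genes had a median of -0.36 over 27, the cholesterol synthesis genes -0.36 over 19 and the NRF2 target genes -0.35 over 17, against 0.07 over all genes. The single member past the rule was Gsta3, a glutathione transferase, which read 907 and 342 (2.65-fold lower). Nqo1 and Gclm, classical NRF2 targets, were at -0.83 and -0.86. These 3 medians lay between -0.28 and -0.49 under the alternatives other than spike-in scaling, which gave -0.87 to -0.88.

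The largest differences below are taken among brighter genes, which were well above background on both arrays, had a mean signal over the median of genes tested and carried an approved-style symbol. The 2 largest increases among them were those of Zfp979 and Atp6v0e2, which are on none of the marker lists. Zfp979, a zinc finger gene, read 18.2 on the WT and 800 on the KO array (43.8-fold higher), and 5.84 (not well above background) and 834 in neutrophils. Atp6v0e2, a subunit of the proton pump, read 14.9 and 495 (33.3-fold higher), and its neighbour on chromosome 6, Rarres2, which encodes the chemoattractant chemerin, 47.3 and 484 (10.2-fold). Dgat2, an enzyme of triglyceride synthesis, read 43.1 and 248 (5.75-fold). The cell adhesion gene Nrcam read 36.8 and 249 (6.78-fold higher) without TNF but 56.2 and 31.5 with TNF. Rbm45, an RNA-binding protein, read 112 and 514, but its other probe was at -0.31. Of the 20 largest increases, 18 were past the rule the same way with TNF and 8 in neutrophils, where 6.97% and 3.65% of all genes tested were higher. The macrophage arrays with and without TNF carry the same mouse numbers in the labels, and if they share mice, the pairs are not independent.

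Among the 20 largest decreases of brighter genes, several were low on every KO array. Rbbp9, a serine hydrolase, read 267 and 31.6 (8.44-fold lower) here, 217 and 27.8 on the arrays with TNF, and 94.4 and 19.7 on the neutrophil arrays, but its other probe was at 0.08. Akr1e1, an aldo-keto reductase, read 321 and 45.2 (7.12-fold lower), 327 and 47.2, and 79.4 and 10.4. Vps16, a subunit of the complexes that tether vesicles to lysosomes, read 1460 and 318 (4.60-fold lower), 1487 and 325, and 1711 and 275. The ribosomal protein gene Rps4l read 476 and 158, 748 and 218, and 211 and 71.5. Psmb6, a catalytic subunit of the proteasome, read 15287 and 6053 (2.53-fold lower), 23555 and 7778, and 4687 and 2361, the last just under 2-fold. Of the 20, 19 were past the rule the same way with TNF and 4 in neutrophils, where 2.69% and 4.73% of all genes were lower. Col6a3, Fndc1, Mgp, Enpp3, Ccn4 and Slc36a2 were below that mark (not well above background) on both neutrophil arrays.

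**Figure D4:**
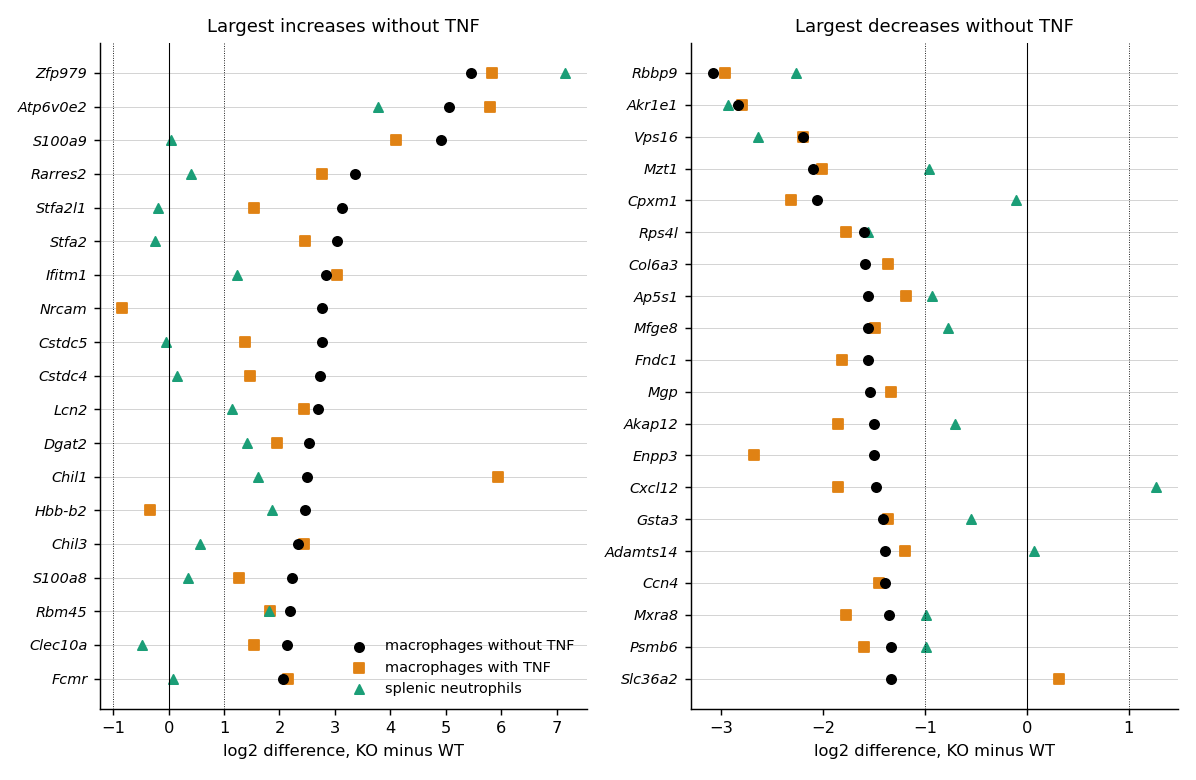
Log2 difference, KO minus WT (x axis), for 19 of the 20 genes most increased and the 20 most decreased, among brighter genes, in macrophages without TNF (circles), with the same genes in macrophages with TNF (squares) and splenic neutrophils (triangles), 1 array per genotype each. A symbol is missing where the gene was not well above background on the brighter array of that pair, and dotted lines mark 2-fold. Most squares lie near the circles, apart from Nrcam, Hbb-b2, Chil1 and Slc36a2, while many triangles lie near 0.

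Over all genes past the rule, 672 of the 1006 higher genes were also past it with TNF (66.8% of these and 40.7% of the list with TNF), and 129 in neutrophils (12.8% and 14.8%). Of the 383 lower genes, 217 were lower with TNF (56.7% and 34.1%) and 49 in neutrophils (12.8% and 4.32%). Tested in neutrophils were 881 of the 1006 but only 200 of the 383, and with TNF 890 and 337. Over all genes tested, 3.65% were higher and 4.73% lower in neutrophils, and 6.97% and 2.69% with TNF. In neutrophils 140 of the 1006 and 15 of the 383 went past the rule the other way. Past the rule the same way in all 3 pairs were 89 higher and 40 lower genes. Named after their values were seen, the largest of these with an approved symbol beside those above were Rab6b (-4.13) and Mrpl35 (-3.81), and Prok2 (4.42) and Ctse (4.32).

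The higher genes were often genes of the neutrophil arrays. Of the 1006, 701 (69.7%) had at least 2-fold more signal in WT neutrophils than in WT macrophages with TNF, against 23.4% of all genes tested. Of the 383 lower genes, 37 (9.66%) were. Without those genes 305 were higher and 346 lower of 18834 tested. As the neutrophil arrays also read B-cell and haemoglobin genes strongly, these shares do not speak of neutrophils alone. Genes called higher tend to be low on the WT array without TNF, which can carry over to the WT array with TNF. All genes tested were not matched for signal, so neither these shares nor the split of 305 and 346 can tell that effect apart. Among the 20 largest increases 12 had at least 2-fold more signal in WT neutrophils in this comparison, and among the 20 largest decreases 0.

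Some genes were read on a single side. Among genes with an approved-style symbol, the largest bounds upward were Adamdec1, a metalloprotease-like gene of macrophages, at least 25.2-fold higher (51.6 on the KO array), Nup62cl at least 21.0-fold and Sebox at least 20.3-fold. Adamdec1 was higher with TNF as well (2.73 and 114) and lower in neutrophils (1950 and 220). Among the same genes, the largest bounds downward were Nlrp1b, an inflammasome sensor, at least 40.9-fold lower (104 on the WT array), and the phospholipase receptor Pla2r1, at least 11.1-fold lower (35.1). Nlrp1b read 3.83 with TNF on the WT array, and its other probe was at -1.77. Of the 8 largest bounds in each direction, 4 and 4 were genes not well above background on any of the other 4 arrays.

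By position, 5 Mb windows with at least 20 genes tested (415 windows) held the most higher genes on chromosome 12 from 115 to 120 Mb (29 of 77, mm9) and chromosome 6 from 65 to 70 Mb (18 of 80). These hold the variable segments of the immunoglobulin heavy and kappa chains. The window counts include genes well above background on the KO array alone, which could not count as lower. Among all heavy and kappa variable probes tested, 6 and 13 of those higher were such bounds. The largest shares of lower genes were on chromosome 9 from 75 to 80 Mb (7 of 51) and chromosome 2 from 130 to 135 Mb (7 of 67), the window of Vps16, Cpxm1 and Ap5s1. Of 114 genes tested on the Y chromosome, of which 10 carry an approved-style symbol, 25 were higher (median 0.76) and 0 lower, while Ddx3y was at -0.11. Of the same genes 73 were higher with TNF and 1 in neutrophils, and whether these probes also read other transcripts was not tested. On the WT array without TNF, 12 of the 114 were not well above background, so these could not count as lower. Intergenic lincRNA probes held 161 higher and 21 lower of 3524 (4.57% and 0.60%), against 4.09% and 1.56% of all genes.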

How the data were processed

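Total RNA of each sample was labelled with Cy3 and hybridised to 1 single-colour Agilent mouse array. Per the file headers, the deposited intensity is linear, background-subtracted and detrended by Agilent Feature Extraction 10.7.3.1 (also in the submitters' processing notes). The 6 arrays shared 1 slide and 1 scan, per the file headers. Control spots and outlier spots were left out, repeat spots averaged (55681 probes, mm9), and log2 values had each array's 75th percentile subtracted. These percentiles were signals of 490 (WT) and 410 (KO), and 62.2% and 60.4% of probes were well above background. The number of arrays limits the precision.

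Probes were named through RefSeq genes (GRCm38.p6, names only): 27325 by accession, 3523 by symbol and 551 by synonym, while 8088 kept the file's name and 16194 were lincRNA probes. A gene (34740) was read by the probe of highest mean over 6 arrays. A bound took, as the dim side, the probe's own signal or, if higher, the lowest signal on that array marked well above background. The rule was tested on simulated data. Members, lists (40 pathway, 17 marker) and rules were chosen with earlier results of these data known. Named were STEAP and sex-linked genes, the 20 largest differences each way among brighter genes whose symbol looks approved, the 8 largest bounds each way, and in each list members past the rule and the 2 largest each way; other names were added after values were seen. The values of 3 genes are not reported here, 1 of them among the 20 largest increases. R 4.3.3 with limma 3.58.1 (normexp, offset 50) was used beside Python.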

Additional observations from a re-analysis of the deposited data

Results flagged for a closer look

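Some named genes were past 2-fold in opposite directions in another pair of arrays. None of these differences between conditions was tested, since each rests on 4 arrays. Adamdec1 was at least 4.65 higher (log2) on the KO array of macrophages without TNF and at -3.15 in splenic neutrophils. Ccl24 was at 1.69 here and -2.68 in neutrophils. Fcgrt, the neonatal Fc receptor, was at 1.53 and -1.07, Gpx3, a secreted glutathione peroxidase, at 1.24 and -1.26, and Derl3 at 1.08 and -1.68. The reverse held for Cxcl12 (-1.48 here, 1.27 in neutrophils) and Serpinh1 (-1.02 and 1.08). Against macrophages with TNF, Hba-a1 was the single such gene, at 1.40 here and -1.33 there. Relative to the spike-ins, Gpx3, Derl3 and Hba-a1 were under 2-fold here (0.71, 0.55 and 0.87).

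Immunoglobulin probes, with bounds included, had medians above 0 here and below 0 in neutrophils. The medians were 1.06 and -1.82 for heavy variable, 0.93 and -1.84 for kappa variable, 1.12 and -1.34 for heavy constant, 0.84 and -1.48 for kappa constant, and 1.78 and -1.15 for lambda probes. Bounds raise the medians here, since such probes were tested only through the KO array. With probes well above background on both arrays they were 0.73 for heavy variable, 0.66 for kappa variable and 1.78 for lambda. Heavy constant rests on 1 tested probe and kappa constant on 2.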

How the results depend on the processing

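No paired analysis was possible because each group had 1 array, and no slide or scan block could be fitted because all arrays shared both. Against 1006 higher and 383 lower genes, normexp background correction gave 332 and 106, as its offset of 50 shrinks the ratios of dim probes. Spike-in scaling gave 438 and 1765, and no filter on dim probes 2300 and 1055. Leaving out genes higher in neutrophils gave 305 and 346, a split that low signal on the WT macrophage arrays can also shape. Under the other alternatives (quantile, median of detected probes, intensity trend removed, both arrays above background, outlier spots kept, median over a gene's probes) the counts ran from 799 to 1126 and from 294 to 561. Past the rule in all 8 settings that keep the dim filter or tighten it were 200 higher and 87 lower genes. Heph, a copper-dependent iron oxidase at -1.18, reversed to 0.34 with the median over its probes. Of the list members, 11 not past the rule had another probe that was, 3 higher (Xaf1, Ms4a4c, Mxd1) and 8 lower (Cd68, Sparc and Cd44 among them). Spike-in scaling, by the mean of the 8 probes, turned the sign of 36 of 58 list medians, the largest of them 0.51. The medians still above 0 were those of ELR CXC chemokines, chemoattractant receptors, Fc receptors, MHC class II genes, stefins, monocytes, mature neutrophils, B cells, T cells, mast cells and eosinophils. Small medians of 11 lists also changed sign under another setting. The stefin median moved to 1.51 and the B-cell median to 1.02 with normexp. Signals near background limit the folds of dim genes.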
